A study of Homo sapiens with 6 samples.

Results

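The BCL2 family decides whether a stressed cell opens its mitochondria and dies. Here 10 of its genes were followed, and all 10 were found by gene symbol among the 18936 genes of the count table. They comprise 4 guardians (BCL2, BCL2L1, BCL2L2 and MCL1), 2 effectors (BAX and BAK1) and 4 genes of the BH3-only class (BID, BCL2L11, BBC3 and PMAIP1). RNA was sequenced from 3 libraries of UC3, a human bladder carcinoma line also known as UM-UC-3, and from 3 libraries of UC3DDP, a chemoresistant subline of it. According to the study's methods, the subline was selected over rising concentrations of gemcitabine, which blocks DNA synthesis, and cisplatin, which crosslinks DNA, with drug-free recovery between cycles, and both lines were grown in the same serum-containing medium. The labels name the subline UC3DDP and the study calls it UC3-R. No source used here says whether drug was present at harvest or whether the subline is 1 clone, and the comparison rests on 1 resistant line from 1 parent. The study's methods state for its experiments in general that they were repeated independently, but neither the labels nor the sequencing methods tie these libraries to separate cultures. The p-values therefore reflect the scatter among these libraries alone, and that scatter may be technical.

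As background, cisplatin lesions are answered in large part through this family. BAX and BAK1 form pores in the outer mitochondrial membrane, through which cytochrome c escapes and starts the caspase cascade. The guardians hold the effectors and the BH3-only proteins in a groove on their surface. The BH3-only proteins carry the stress signal, and they act by filling that groove or by switching the effectors on. The short BH3 segment is what the 3 classes have in common, and it is the part that drugs of the BH3 mimetic class imitate.

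The DNA that encodes this segment is printed for all 10 genes, because it is the feature that makes them 1 family. Each window is 36 bases of the annotated coding strand, 5′ to 3′, and the capitals mark the 18 bases of 6 codons that begin with leucine or methionine and end with glycine or alanine followed by aspartate. These codons were searched for in the reading frame of each canonical transcript, and every one of the 10 genes held exactly 1 match. Among 19742 canonical coding sequences read in the same manner, 29% held at least 1 match, so the pattern alone does not mark a family member.
BCL2: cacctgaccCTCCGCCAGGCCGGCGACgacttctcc
BCL2L1: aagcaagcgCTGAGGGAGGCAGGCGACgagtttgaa
BCL2L2: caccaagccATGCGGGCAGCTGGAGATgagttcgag
MCL1: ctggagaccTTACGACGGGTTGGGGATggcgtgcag
BAX: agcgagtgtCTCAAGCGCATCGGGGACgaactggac
BAK1: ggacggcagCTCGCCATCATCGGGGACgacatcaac
BID: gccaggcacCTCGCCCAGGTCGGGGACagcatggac
BCL2L11: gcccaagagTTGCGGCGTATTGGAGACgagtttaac
BBC3: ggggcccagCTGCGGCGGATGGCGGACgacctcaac
PMAIP1: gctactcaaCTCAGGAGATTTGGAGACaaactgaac

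Each window lay within a single coding exon of its gene in GENCODE 44 on GRCh38. The guardian windows were at chr18:63318352-63318387 on the minus strand (BCL2), chr20:31721925-31721960 on the minus strand (BCL2L1), chr14:23307894-23307929 on the plus strand (BCL2L2) and chr1:150578868-150578903 on the minus strand (MCL1). The effector windows were at chr19:48955778-48955813 on the plus strand (BAX) and chr6:33575390-33575425 on the minus strand (BAK1). The BH3-only windows were at chr22:17739418-17739453 on the minus strand (BID), chr2:111150094-111150129 on the plus strand (BCL2L11), chr19:47226582-47226617 on the minus strand (BBC3) and chr18:59902664-59902699 on the plus strand (PMAIP1). In all 4 BH3-only genes the segment sat in a different place along the protein, starting at codon 29 of 54 in PMAIP1, 90 of 195 in BID, 141 of 193 in BBC3 and 152 of 198 in BCL2L11. The same 18 bases ranged in GC content from 50% in PMAIP1 to 83.3% in BCL2.

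The UC3 libraries held 19467228 to 20803970 counts and the UC3DDP libraries 16757610 to 17254683. Levels are given as CPM, which scales each count to the library total after TMM adjustment. UC3DDP replicate 1 stood apart from the other libraries of its line, with chi-square values of 19.1 and 11.5 for each degree of freedom against replicates 2 and 3, where the latter pair gave 3.12. Fold changes over all genes followed the GC content of the transcripts. The median log2 fold change of protein-coding genes ran from -1.43 in the decile of lowest GC content to 0.80 in the decile of highest. The gap between genes of high and low GC content, measured against the UC3 mean, was 2.34 in UC3DDP replicate 1, 1.67 in replicate 2 and 1.84 in replicate 3, and it lay between -0.018 and 0.020 in UC3. The fold changes of the 10 genes are therefore also given from a second fit with an offset for GC content and length. Levels, shares, sums and ratios carry no such offset. The offset takes away any real difference that runs with GC content as well as any technical one, and these cannot be told apart.

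Urothelial markers were uneven in both lines. The table lists only genes with at least 10 counts over the 6 libraries, and 8 of 14 urothelial markers were listed, with the keratins KRT8 and KRT18 well expressed but the uroplakins UPK1A and UPK2 under 1 CPM in both lines. The urothelial markers summed to between 220 and 230 CPM in UC3 and between 343 and 427 CPM in UC3DDP, most of it KRT18 (152 and 288 CPM). PPARG stood at 14.5 and 16.8 CPM, FOXA1 at 1.68 and 2.83 and GATA3 at 0.794 and 1.55. Markers said to rise or fall were called by the limits given below, by which 17.6% of all genes tested were higher and 23.1% lower. Of 6 urothelial markers tested, 1 rose, TP63, from 0.0490 to 2.16 CPM, and none fell. With the offset 2 were called higher and none lower. Mesenchymal markers summed to between 1769 and 1814 CPM in UC3 and between 3288 and 3672 CPM in UC3DDP, most of it VIM (1514 and 3183 CPM). Of 10 tested, 6 rose and 2 fell, the latter being ZEB1, which fell by 2.71, and ZEB2, which fell by 1.47. With the offset 6 were again called higher and 2 lower. ZEB1 then stood at -1.44, ZEB2 stood at -0.09 and was not called, and TWIST1 was called lower at -1.19. Only 2 of 10 leukocyte markers were listed, and they summed to between 0.528 and 1.07 CPM over all libraries. Of 9 endothelial markers 7 were listed, summing to between 12.5 and 12.9 CPM in UC3 and between 77.8 and 98.6 CPM in UC3DDP, mostly through TIE1 and EGFL7. All 3 that could be tested rose, TIE1 from 1.15 to 47.1 CPM, VWF from 0.0993 to 2.65 CPM and EGFL7 with a log2 fold change of 1.63. With the offset TIE1 and VWF were still called, at 4.62 and 4.27, while EGFL7 stood at 0.78, under the fold limit. The other defining genes were low, and TEK and CLDN5 were not listed. KDR had no count in UC3 and 11, 0 and 2 counts in UC3DDP replicates 1, 2 and 3, and PECAM1 had 47, 5 and 5 counts there. COL3A1, a stromal collagen, had 58, 2 and 2. The part of these markers in the results was not tested, and values without UC3DDP replicate 1 are given where a result rests on it.

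Of the 10 genes, BAK1 alone was called different between the lines, and it rose in UC3DDP. A gene was called when its adjusted p was under 0.05 and its log2 fold change exceeded 1 in either direction, in the quasi-likelihood test of edgeR with Benjamini-Hochberg adjustment over all 15120 genes tested, and every adjusted p comes from this test. All 10 passed the filter on low counts. Over all genes tested, 40.7% were called, 17.6% higher and 23.1% lower. Without the fold limit 7 of the 10 passed, 5 higher and 2 lower, where 80.5% of all genes passed, 40.6% higher and 39.9% lower. The libraries of the lines did not overlap in CPM for 7 of the 10 genes, 5 above and 2 below, where 83.7% of all genes did not overlap, 42.1% above and 41.6% below. Counted over both directions, the share of the 10 genes called with the fold limit was below the background. The share that passed without the fold limit and the share that did not overlap were near it. The median absolute log2 fold change of the 10 genes was 0.54, against 0.82 over all genes tested, and 9 of the 10 lay within the fold limit, against 59.1% of all genes. With the offset none of the 10 was called, where 27.4% of all genes were, 14.3% higher and 13.2% lower. Under the offset 6 of the 10 passed the adjusted p alone, where 77.1% of all genes did, 39.9% higher and 37.2% lower.

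**Figure D1:**
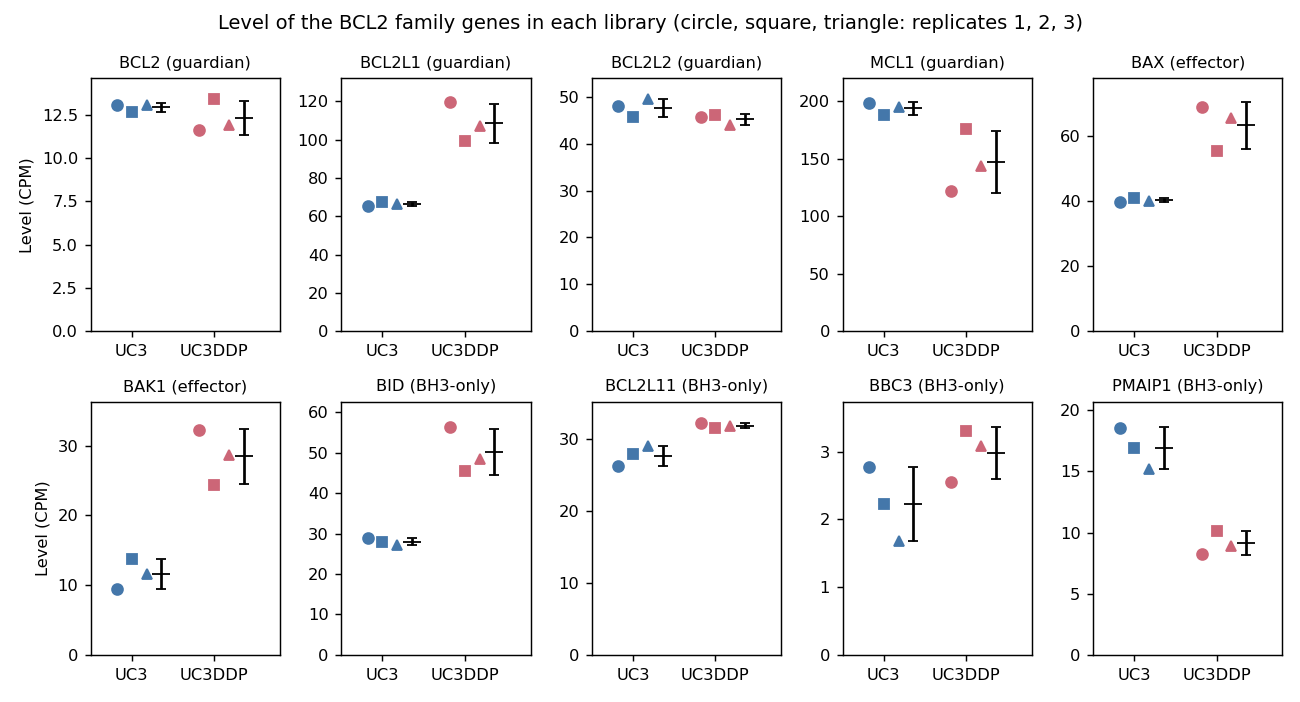
Level in CPM of each of the 10 genes in the 3 UC3 libraries (blue) and the 3 UC3DDP libraries (red), with the mean and SD in black and every axis starting at 0. BAK1, BAX, BCL2L1 and BID sat higher in every UC3DDP library, MCL1 and PMAIP1 sat lower, and BCL2, BCL2L2 and BBC3 overlapped.

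BAK1 encodes BAK, the effector that resides in the outer mitochondrial membrane even in healthy cells. The gene (ENSG00000030110, chr6:33572547-33580293, minus strand, GRCh38) had 9.42, 13.7 and 11.6 CPM in UC3 replicates 1, 2 and 3 and 32.3, 24.4 and 28.7 CPM in UC3DDP replicates 1, 2 and 3. The lowest UC3DDP library was well above the highest UC3 library, although UC3 replicate 1 was the lowest by some way. The mean went from 11.6 ± 2.14 to 28.5 ± 3.93 CPM (SD, n = 3 libraries each), 2.46-fold, with a log2 fold change of 1.30 (SE 0.147, 95% interval 0.97 to 1.63, edgeR adjusted p = 3.1e-05). Without UC3DDP replicate 1 it stood at 1.20 and was still called. With the GC and length offset it was 0.56 (95% interval 0.31 to 0.81, edgeR adjusted p = 0.0010), the same direction but under the fold limit. An annotated pseudogene on the opposite strand, GGNBP1, shares 4.1% of the exon bases of BAK1 and had at most 12 counts in a library.

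BAX encodes the other effector, a protein that waits in the cytosol and moves to mitochondria upon activation. The gene (ENSG00000087088, chr19:48954815-48961798, plus strand) had 40.0, 41.1 and 40.0 CPM in UC3 and 69.2, 55.4 and 65.6 CPM in UC3DDP. Every UC3DDP library was above every UC3 library, but the difference stayed under the fold limit. The mean went from 40.3 ± 0.622 to 63.4 ± 7.15 CPM (SD, n = 3 each), a log2 fold change of 0.65 (SE 0.092, edgeR adjusted p = 0.00014). With the offset it stood at -0.10 (95% interval -0.22 to 0.03).

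Among the guardians, MCL1 had the highest level per length in UC3 and BCL2L1 in UC3DDP, although neither gene passed the fold limit. BCL2L1 encodes BCL-XL, a long-lived guardian, and, in a shorter splice form, a protein that promotes death. Gene counts do not separate the 2 forms. BCL2L1 (ENSG00000171552, chr20:31664452-31723989, minus strand) had 65.2, 67.2 and 66.1 CPM in UC3 and 119, 99.2 and 107 CPM in UC3DDP. The lines did not overlap, and the mean of 66.2 ± 1.01 against 108 ± 10.2 CPM (SD, n = 3 each) gave a log2 fold change of 0.71 (SE 0.084, 95% interval 0.52 to 0.90, edgeR adjusted p = 4.1e-05). With the offset nothing of it was left, the value being -0.0001 (95% interval -0.10 to 0.10). The antisense RNA gene ABALON shares 41.3% of the exon bases of BCL2L1, so without strand their reads cannot be told apart there. ABALON was counted at 14 to 28 reads per library, but how reads of the shared part were assigned is not known. That count therefore does not limit how many reads BCL2L1 gained or lost there.

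MCL1 encodes a short-lived guardian, whose protein level depends on constant synthesis and on removal by the proteasome. The gene (ENSG00000143384, chr1:150560895-150579738, minus strand) was the most abundant of the 10 in CPM, at 199, 188 and 195 in UC3 and 122, 176 and 143 in UC3DDP. All UC3DDP libraries were below all UC3 libraries, and they were far more spread than those of UC3. The mean of 194 ± 5.68 against 147 ± 27.3 CPM (SD, n = 3 each) gave a log2 fold change of -0.40 (SE 0.122, edgeR adjusted p = 0.0136), under the fold limit. Without UC3DDP replicate 1, the lowest library, it was -0.28, and without replicate 2, the highest of the line, it was -0.56. With the offset it stood at -0.13 (95% interval -0.31 to 0.05, edgeR adjusted p = 0.156).

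BCL2, the founding guardian of the family, had the lowest level of the guardians and did not differ detectably in counts. The gene (ENSG00000171791, chr18:63123346-63320128, minus strand) had 13.1, 12.7 and 13.1 CPM in UC3 and 11.6, 13.4 and 11.9 CPM in UC3DDP. The highest library of all was UC3DDP replicate 2, so the lines overlapped. The log2 fold change was -0.07 (95% interval -0.28 to 0.14, edgeR adjusted p = 0.493), which leaves room only for a change well below the fold limit. With the offset it was 0.25 (95% interval 0.08 to 0.42).

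BCL2L2 encodes BCL-W, a guardian close in sequence to BCL-XL. It (ENSG00000129473, chr14:23298790-23311751, plus strand) had 48.0, 45.6 and 49.5 CPM in UC3 and 45.8, 46.1 and 43.9 CPM in UC3DDP, again overlapping. The log2 fold change was -0.08 (95% interval -0.24 to 0.08, edgeR adjusted p = 0.341), and -0.52 with the offset (95% interval -0.64 to -0.39). A readthrough gene, BCL2L2-PABPN1, shares 16.8% of its exon bases on the same strand and had 8, 4 and 4 counts in UC3 and 0, 5 and 1 in UC3DDP, so reads of the shared part are uncertain.

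**Figure D2:**
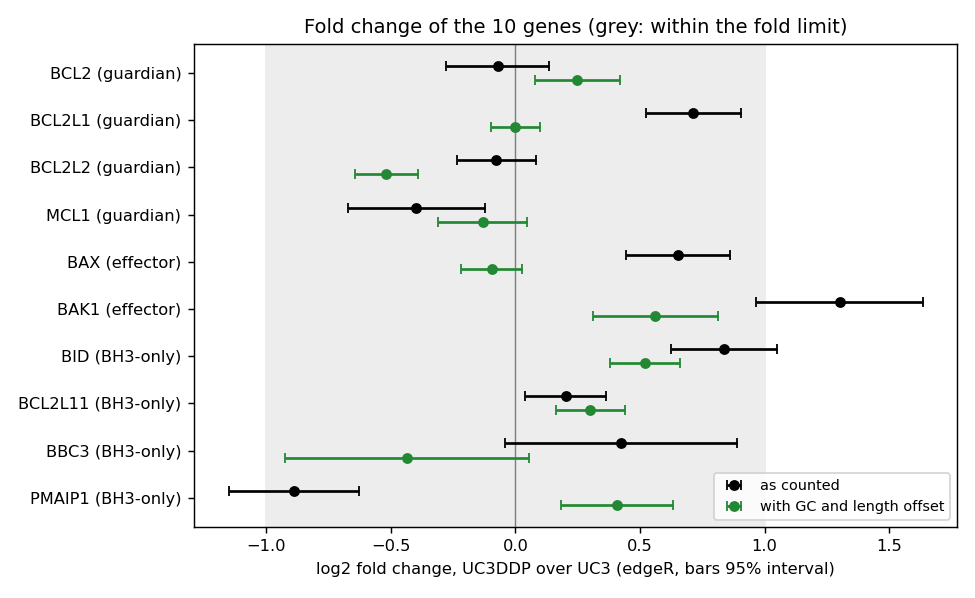
Log2 fold change of UC3DDP over UC3 for the 10 genes with 95% intervals from edgeR, as counted (black) and with the GC and length offset (green), the grey band marking the fold limit of 1 in each direction. BAK1 alone lies outside the band as counted, no gene does with the offset, and PMAIP1 moves from -0.89 to 0.41.

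The BH3-only genes went in different directions. BID encodes the link from death receptors to mitochondria, a protein activated by caspase-8. The gene (ENSG00000015475, chr22:17734138-17774770, minus strand) had 28.9, 27.9 and 27.3 CPM in UC3 and 56.5, 45.6 and 48.4 CPM in UC3DDP. The lines were well separated, from a mean of 28.0 ± 0.799 to 50.1 ± 5.66 CPM (SD, n = 3 each). The log2 fold change of 0.84 (SE 0.093, 95% interval 0.63 to 1.05, edgeR adjusted p = 2.8e-05) stayed under the fold limit. BID kept 0.52 with the offset (95% interval 0.38 to 0.66, edgeR adjusted p = 2.6e-05).

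PMAIP1 encodes NOXA, which binds MCL1 and favours its removal. It (ENSG00000141682, chr18:59899996-59904305, plus strand) had 18.6, 16.9 and 15.2 CPM in UC3 and 8.24, 10.2 and 8.94 CPM in UC3DDP. Every UC3DDP library was below every UC3 library, with means of 16.9 ± 1.71 and 9.12 ± 0.975 CPM (SD, n = 3 each). The log2 fold change was -0.89 (SE 0.115, 95% interval -1.15 to -0.63, edgeR adjusted p = 7.8e-05), under the fold limit. With the offset the direction turned, to 0.41 (95% interval 0.18 to 0.63, edgeR adjusted p = 0.00366). PMAIP1 had the lowest GC content of the 10 transcripts, at 36.7%, in the decile of genes whose median was -1.43.

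BCL2L11 encodes BIM, which binds all guardians and can switch on the effectors. The gene (ENSG00000153094, chr2:111119378-111168445, plus strand) had 26.3, 27.9 and 29.0 CPM in UC3 and 32.3, 31.6 and 31.9 CPM in UC3DDP. The lines did not overlap, but the difference was small, with a log2 fold change of 0.20 (95% interval 0.04 to 0.36, edgeR adjusted p = 0.0275) and 0.30 with the offset (95% interval 0.16 to 0.44). The host gene MIR4435-2HG on the opposite strand shares 10.8% of its exon bases and was more abundant than BCL2L11 itself, at 80.6 to 83.9 CPM in UC3 and 60.0 to 66.4 CPM in UC3DDP.

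BBC3 encodes PUMA, a strong killer protein of the class. It (ENSG00000105327, chr19:47220822-47232766, minus strand) was the least abundant of the 10, with 56, 43 and 35 counts in UC3 and 43, 57 and 52 counts in UC3DDP. The lines overlapped, and the log2 fold change of 0.42 had a wide interval (95% interval -0.04 to 0.89, edgeR adjusted p = 0.0827). With the offset it was -0.44 (95% interval -0.92 to 0.05), so the sign of the estimate depended on the offset.

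Levels were then set against each other per kilobase of the exon length in the count table, since longer transcripts yield more reads. The order between genes depends on that length. In UC3 the order of mean CPM per kb was BAX (50.8), MCL1 (49.1), BCL2L1 (25.7), BCL2L2 (13.5), BID (12.9), PMAIP1 (8.90), BCL2L11 (5.44), BAK1 (5.33), BCL2 (1.88) and BBC3 (1.21). The single libraries overlapped between BAX and MCL1, with 47.5 to 50.4 for MCL1 and 50.2 to 51.7 for BAX, between BCL2L2 and BID, between BCL2L11 and BAK1, and between no other neighbours in the order. PMAIP1 held the sixth place in UC3, ahead of BCL2L11 and BAK1. In UC3DDP the order was BAX (79.8), BCL2L1 (42.1), MCL1 (37.3), BID (23.0), BAK1 (13.1), BCL2L2 (12.8), BCL2L11 (6.25), PMAIP1 (4.80), BCL2 (1.79) and BBC3 (1.61). There the libraries of BCL2L1 (38.6 to 46.4) and MCL1 (31.0 to 44.7) overlapped, as did those of BAK1 and BCL2L2 and those of BCL2 and BBC3. BAK1 thus went from the eighth place to the fifth and PMAIP1 from the sixth to the eighth.

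The guardians differed between the lines in composition more than in summed level. Their summed level was 91.2, 88.4 and 91.1 CPM per kb in UC3 and 92.0, 98.2 and 92.0 in UC3DDP. MCL1 made up 54.4% ± 0.730 of that sum in UC3 and 39.5% ± 5.91 in UC3DDP (SD, n = 3 each). BCL2L1 made up 28.5% ± 0.915 in UC3 and 50.4%, 39.2% and 45.1% in UC3DDP replicates 1, 2 and 3. BCL2L2 held 15.0% ± 0.391 and 13.7% ± 0.416, and BCL2 2.08% ± 0.00267 and 1.90% ± 0.0770. MCL1 stayed ahead of BCL2L1 in UC3DDP replicate 2 (45.5% against 39.2%) and was behind it in the other libraries of the line, so the order of the pair within UC3DDP depended on the library. It also depended on the division by length. As shares of summed CPM, MCL1 was ahead in all 3 UC3DDP libraries, with 40.9% against 39.9% in replicate 1, 52.6% against 29.6% in replicate 2 and 46.8% against 34.9% in replicate 3, and the share of BCL2 was 4.03% in UC3 and 3.93% in UC3DDP. BCL2L1 and MCL1 also differ in GC content, at 58.2% and 44.7%, and the part of GC content in this exchange cannot be told apart from that of the line.

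**Figure D3:**
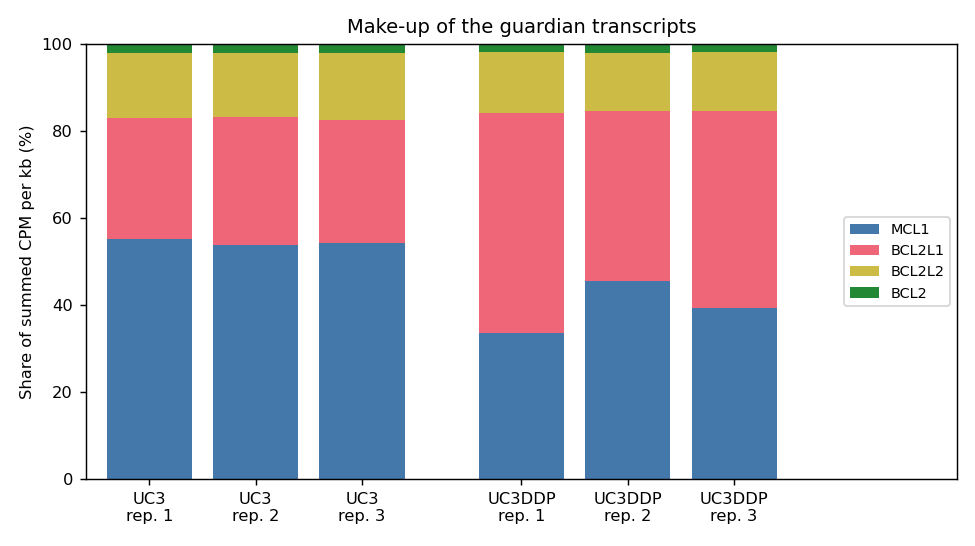
Share of each guardian in the summed CPM per kb of the 4 guardians, 1 bar per library, 3 UC3 libraries on the left and 3 UC3DDP libraries on the right, each bar adding to 100%. MCL1 fills 53.8% to 55.2% of the UC3 bars and 33.6% to 45.5% of the UC3DDP bars, and BCL2L1 takes most of the remainder.

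The effectors together stood at 54.6 to 58.0 CPM per kb in UC3 and at 81.0 to 102 in UC3DDP, and the 4 BH3-only genes at 27.1 to 29.7 and 34.3 to 38.0. Ratios within a library carry these differences pair by pair. The log2 ratio of BCL2L1 to BAX, a guardian and an effector of nearly equal GC content (58.2% and 58.9%), was -0.99, -0.98 and -0.97 in UC3 and -0.91, -0.85 and -0.99 in UC3DDP. These values overlapped, and the means differed by 0.06. The ratio of BAK1 to BAX, whose GC contents are 58.8% and 58.9%, was -3.53, -3.03 and -3.24 in UC3 and -2.55, -2.63 and -2.64 in UC3DDP, so that BAK1 gained on BAX by 0.66 on the log2 scale with no overlap between the lines. The ratio of MCL1 to BAX went from -0.05 ± 0.0642 to -1.11 ± 0.430, and that of BCL2L1 to BAK1 from 2.29 ± 0.248 to 1.69 ± 0.0763 (mean and SD of the log2 ratio, n = 3 each). The log2 ratio of PMAIP1 to its partner MCL1 had a mean of -2.47 ± 0.142 in UC3 and -2.95 ± 0.113 in UC3DDP. BCL2 over BAX, a ratio often quoted for protein, was -4.76 ± 0.0491 in UC3 and -5.47 ± 0.279 in UC3DDP at the level of RNA. Pairs of unequal GC content depended on the offset. With it the fold change of PMAIP1 (0.41) was above that of MCL1 (-0.13), and that of BCL2 (0.25) above that of BAX (-0.10), the reverse of the order in these ratios, while MCL1 and BAX stood close to each other. No test was run on the ratios.

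The position of the 10 genes along the GC trend is a plain description of where each one stands. BCL2L1 (0.71) and BAX (0.65) lay close to the median of their decile of GC content, 0.73, and so did MCL1 (-0.40, against -0.39) and BCL2 (-0.07, against -0.0016). BAK1 at 1.30 lay above the same 0.73. BID at 0.84 lay above 0.32, and BCL2L11 at 0.20 above -0.0016. PMAIP1 at -0.89 lay above -1.43. BCL2L2 at -0.08 lay below 0.49, and BBC3 at 0.42 below 0.80. Within UC3DDP, replicate 1 had the widest GC gap of the 3 libraries and replicate 2 the narrowest, and the CPM of BCL2L1, BAX, BAK1, BID and BCL2L11 was highest in replicate 1 and lowest in replicate 2, while that of MCL1, BCL2, PMAIP1 and BBC3 was lowest in replicate 1 and highest in replicate 2. BBC3, the gene of highest GC content (69.7%), thus went with the genes of low GC content, and BCL2L2 was highest in replicate 2 and lowest in replicate 3.

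**Figure D4:**
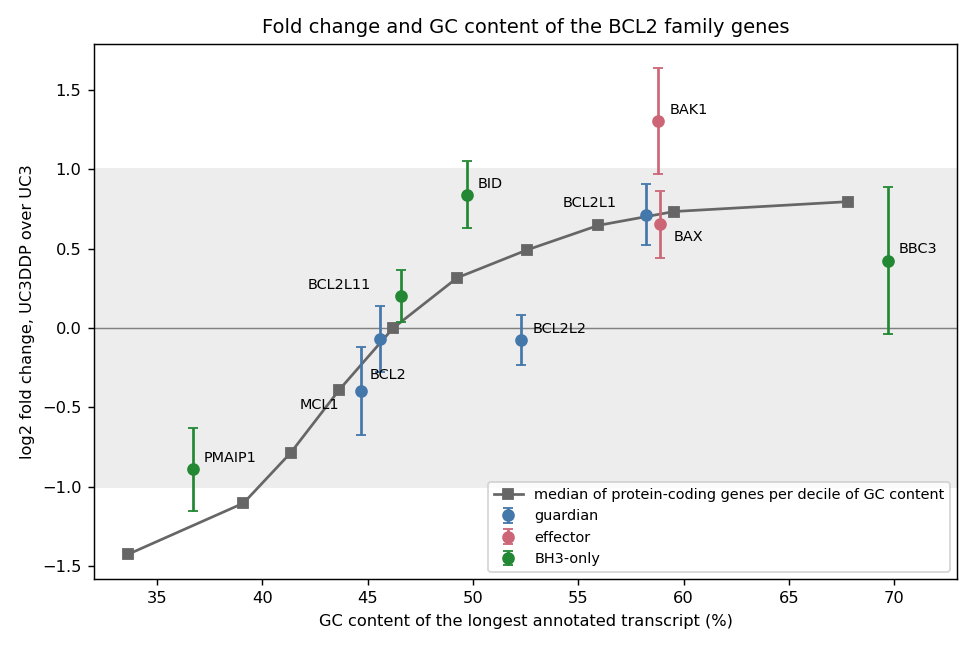
Log2 fold change of UC3DDP over UC3 against the GC content of the longest annotated transcript for the 10 genes (points with 95% intervals, coloured by class), with the median of protein-coding genes in each decile of GC content as grey squares. The grey band marks the fold limit. BCL2L1, BAX, MCL1 and BCL2 lie on or near the grey line, BAK1, BID, BCL2L11 and PMAIP1 above it, and BCL2L2 and BBC3 below it.

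Chromosomal neighbours were compared with each gene as a measure the choice of genes did not use, taking the 5 tested protein-coding genes on either side. The 10 neighbours of a gene spanned from 314 kb (BAX) to 6786 kb (BCL2L1), with 857 kb for BAK1. Counts of risen and fallen neighbours stand beside 17.6% higher and 23.1% lower over all genes tested. No such count was tested against that share. Beside BAK1 on chromosome 6, all 10 neighbours had a log2 fold change above 0, with a median of 0.65 and a range of 0.32 to 1.99, and 3 of them rose, namely PHF1, CUTA and ITPR3. The highest was ITPR3, a calcium channel of the endoplasmic reticulum. With the offset the median of these neighbours was 0.07. Among the neighbours of BCL2L1 on chromosome 20 the median was -0.44, with 4 of 10 fallen and none risen. Of those that fell, NINL, NANP and ZNF337 lie between 25452697 and 25696853, far from BCL2L1, which starts at 31664452. ID1, which also fell, lies close to BCL2L1. BCL2L1 at 0.71 stood above the highest of its neighbours, POFUT1, at 0.52. With the offset the median of the BCL2L1 neighbours was -0.68 and 1 of the 10 lay above 0. Around PMAIP1 the median was -0.77, with 4 fallen and CCBE1 lowest at -4.30, and around BCL2 on the same chromosome it was -0.61, with 3 fallen. With the offset these medians were -0.19 and 0.11. These sets share 5 genes. The neighbours of BID had a median of 0.96 with 5 risen, and they include BCL2L13, another gene of the family, at 0.49, and the median was 0.82 with the offset. Those of BAX and BBC3, both on chromosome 19, had medians of 0.74 and 0.88, and of -0.0049 and 0.23 with the offset. The neighbours of MCL1 had a median of 0.29, or 0.34 with the offset, and 2 of them rose, the matrix protein gene ECM1 by 6.23 and the cathepsin gene CTSS by 3.68. Those of BCL2L11 had a median of -0.88, with 1 risen and 2 fallen, while BCL2L11 itself stood at 0.20. Those of BCL2L2 had a median of 0.0048, with 3 risen and none fallen. With the offset these medians were -0.0066 and -0.14. DNA copy number was not measured here, and the part of it in the values of the genes and their neighbours was not tested.

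**Figure D5:**
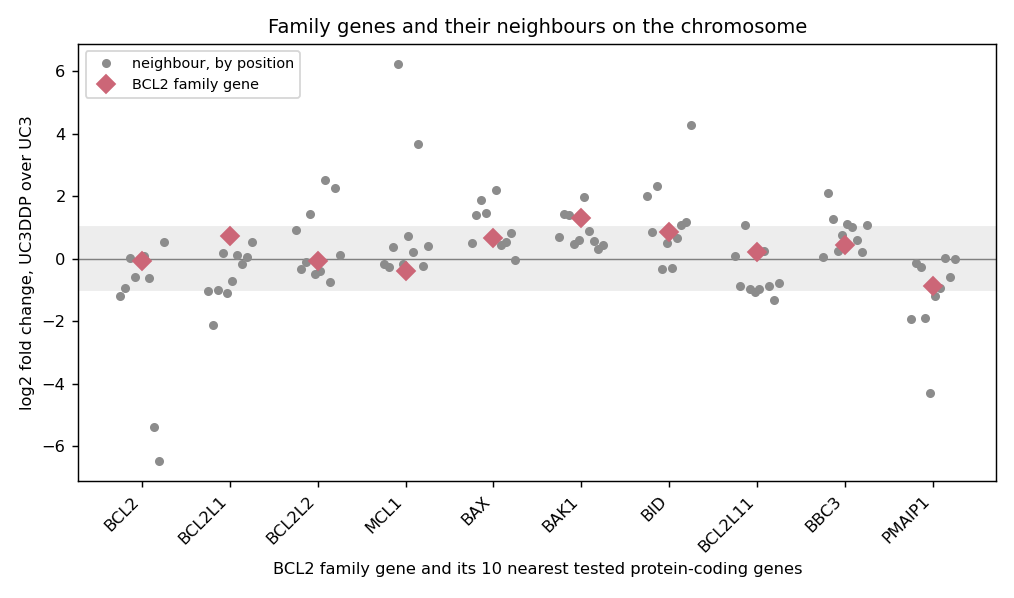
Log2 fold change of UC3DDP over UC3 for each of the 10 genes (red diamonds) and for the 10 nearest tested protein-coding genes on its chromosome (grey points, in order of position from left to right). The neighbours of BAK1 all lie above 0, and BCL2L1 lies above all of its neighbours.

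Of the other BCL2 family genes, BAD rose and BNIP3L fell. Of 13 such genes 9 were tested, and 1 was called higher and 1 lower (background 17.6% and 23.1%), with a median log2 fold change of 0.28 against 0.02 over all genes. BAD, a BH3-only protein that growth factor signalling keeps inactive by phosphorylation, rose by 1.75 from 12.4 ± 1.02 to 41.7 ± 3.46 CPM (edgeR adjusted p = 5.3e-07), and stood at 0.89 with the offset, under the fold limit. BNIP3L, a receptor for the removal of mitochondria, fell by 1.43 from 174 ± 1.06 to 64.4 ± 8.59 CPM (edgeR adjusted p = 1.6e-06), and stood at -0.17 with the offset. BOK, an effector-like protein, BCL2L13, another mitochondrial member, and BCL2L12 were within the fold limit at 0.57, 0.49 and 0.39, and stood at -0.26, 0.46 and -0.30 with the offset. BCL2A1, an inducible guardian, stood at -0.62, and the BH3-only genes BMF and HRK, at under 4 CPM, at 0.23 and 0.28. BNIP3 stood at 0.17. With the offset BCL2A1, BMF, HRK and BNIP3 stood at 0.14, -0.27, 0.14 and -0.25, and none of the 9 was called.

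OPA1 and 3 other genes of mitochondrial shape fell in UC3DDP. Of 14 genes of the outer membrane and of mitochondrial fission and fusion, 4 fell and none rose, with a median of -0.21, where 23.1% of all genes were called lower and 17.6% higher. The share of these 14 genes that fell was near that background. OPA1, which keeps the cristae closed, fell by 3.11 from 299.5 ± 7.54 to 34.6 ± 9.27 CPM. MFN1, a fusion protein, fell by 2.30, OMA1, a protease that cuts OPA1, fell by 2.13, and DNM1L, the fission motor, fell by 1.61. OPA1, MFN1 and OMA1 still passed with the offset, at -1.79, -1.26 and -1.75, whereas DNM1L stood at -0.45, and MARCHF5, a ubiquitin ligase of the outer membrane, was then called higher at 1.19. Of the genes of the proteins released and of the apoptosome, HTRA2, a protease set free from mitochondria, rose by 1.65 and cytochrome c (CYCS) fell by 1.17. With the offset HTRA2 stood at 1.47 and was still called, while CYCS stood at -0.29 and was not.

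Genes that govern the life of the MCL1 and BIM proteins gave few calls. Of 11 genes of MCL1 turnover, 3 fell and none rose, with a median of -0.50, again near the background of 23.1% lower. Without UC3DDP replicate 1 none of the 11 was called lower. USP9X, a deubiquitinase that spares MCL1, fell by 1.16, and the other genes called, FBXW7 and CUL1, parts of a ubiquitin ligase that marks it, stood at -1.07 and -1.04. With the offset none of the 11 was called and the median was 0.06. CUL1 and FBXW7 then stood at -0.99 and -0.87, under the fold limit but in the same direction, and USP9X at 0.06. Some offset fits that left out a library called 1 of the 11 lower. Of 9 genes of dynein light chains and 14-3-3 proteins, which bind BIM and BAD, 1 rose, SFN, from 0.0977 ± 0.0816 to 0.785 ± 0.179 CPM, where 17.6% of all genes were called higher. SFN was chosen after its values were seen. DYNLL2, the light chain that binds BMF, stood at 0.76.

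Among 18 tested genes of transcription factors that act on the family, 2 rose and 2 fell, a smaller share in each direction than the 17.6% and 23.1% of all genes. TP63 rose from 3 counts in all UC3 libraries to 110 in UC3DDP, which is 43.4 times the UC3 sum per mapped read (exact 95% interval 14.5 to 214, covering counting error only), yet reached only 2.16 ± 0.156 CPM. STAT3, a signal-driven factor, rose by 1.23 and stood at 0.96 with the offset. REL, of the NF-kappaB factors, fell by 1.94 and HIF1A, the oxygen-regulated factor, fell by 1.39, and with the offset these stood at -0.44 and -0.01. The other NF-kappaB genes of the list did not fall. RELA stood at 0.93 and NFKB1 at 0.03. With the offset they stood at 0.24 and 1.48, and NFKB1 was then called higher. FOXO3, a driver of BIM expression, stood at 0.06.

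At the endoplasmic reticulum, where guardians and BAK1 meet calcium channels, 2 of 9 genes rose and 1 fell, with a median of 0.68, beside the background of 17.6% and 23.1%. The count of risen genes was 1 without UC3DDP replicate 1, and also 1 without UC3 replicate 1. The inositol trisphosphate receptors went apart. ITPR3, the neighbour of BAK1, rose by 1.99 from 101 ± 2.28 to 401 ± 22.6 CPM, and ITPR2 fell by 2.24 from 58.1 ± 1.93 to 12.3 ± 2.74 CPM. Both passed with the offset too, at 1.60 and -1.15. BCAP31, an endoplasmic reticulum protein cut by caspase-8, rose by 1.02 and stood at 0.29 with the offset. BECN1, whose protein holds a BH3 segment and drives autophagy, stood at 0.93 and passed with the offset alone, at 1.07.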

How the data were processed

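Libraries were grouped by the line in their titles, which share 1 prefix and also carry the replicate number. The labels do not say what the prefix stands for. The series text names the line T24, the extraction text retinas, and the submitters' processing notes the mouse build mm9. The gene identifiers are human, and 99.8% of the 18936 genes overlapped their GRCh38 position in GENCODE 44, so the table was read as human UC3 data. The authors deposited whole-number gene counts, not normalized, which per the study's methods came from featureCounts after Fastp trimming and HISAT2 alignment to GRCh38. No source used here states the strand setting. The table's exon length served for levels per kb. Columns of the authors' own comparison (fold change, p-value, false discovery rate) were not used.

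Counts were tested with edgeR 4.0.16 in R 4.3.3 (TMM scaling, filterByExpr with minimum count 10, quasi-likelihood test, Benjamini-Hochberg adjustment over 15120 genes), which was tested on simulated data. The offset came from loess trends (span 0.3) of log2 CPM (prior count 2) on transcript GC content, then on exon length. Intervals are 95%. Alternatives were DESeq2 1.42.0, limma 3.58.1 (voom), other scalings, no filter, no fold limit, the replicate number as a block, and each library left out. Genes named were the 10 members, the tested other family genes, overlapping genes, and up to 3 called genes of each other list with the largest fold change and at least 1 CPM. Other genes named, among them DNM1L, MARCHF5, SFN, DYNLL2, STAT3, FOXO3, BECN1 and the neighbours, were chosen after their values were seen. Some genes of these lists, and 1 further list, are not reported here. The members and lists were chosen with earlier results of these data known.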

Additional observations from a re-analysis of the deposited data

How the results depend on the processing

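The count of called members was 1 higher and 0 lower with DESeq2, limma voom, DESeq2 size factors in edgeR, library totals alone, no filter and each library left out, and BAK1 ranged from 1.16 to 1.43 over the libraries left out. At an unadjusted p under 0.05, as at an adjusted one, 2 of the 10 were lower. Without the fold limit the counts were 5 and 2. The GC and length offset gave 0 and 0, also with the replicate block and with each library left out. With it the sign of the estimate turned for BCL2 (0.25), BCL2L1 (-0.0001), BAX (-0.10), BBC3 (-0.44) and PMAIP1 (0.41), and with offset and replicate block together these stood at 0.25, -0.0003, -0.10, -0.43 and 0.41. With the offset the 95% intervals of BCL2L1, BAX and BBC3 held 0. Without it those of BCL2 and BBC3 did. Of these genes, PMAIP1 alone had intervals clear of 0 in both fits. With the offset and single libraries left out, the estimates ranged from 0.23 to 0.29 (BCL2), -0.018 to 0.024 (BCL2L1), -0.13 to -0.041 (BAX), -0.61 to -0.25 (BBC3) and 0.34 to 0.47 (PMAIP1). Without the offset, single libraries left out gave -0.15 to -0.029 (BCL2), 0.64 to 0.76 (BCL2L1), 0.59 to 0.73 (BAX), 0.24 to 0.60 (BBC3) and -0.99 to -0.82 (PMAIP1). The sign of the BCL2L1 estimate turned in 5 of the 6 offset fits that left out a library.

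No source used here says whether the replicate numbers pair samples. Deviations of same-numbered libraries correlated at -0.047, -0.014 and -0.009, and with the replicate block the count of called members was 1 higher and 0 lower, with BAK1 at 1.30. The UC3 libraries differed little, with chi-square values of 1.4 to 1.72 for each degree of freedom, so these correlations cannot exclude a pairing. Without UC3 replicate 1 the adjusted p of BCL2L11 was 0.168 (edgeR), and over the other alternatives it lay between 0.00069 and 0.102, so its small difference rests on the setting. The counts over all genes were 2158 higher and 1991 lower with the offset and 2666 and 3495 without it, so that 52% against 43.3% of called genes were higher. BBC3 rests on 35 to 57 counts a library. Levels per kb rest on the exon length of the count table, which is 795 bases for BAX, 2574 for BCL2L1 and 3950 for MCL1. That length is described only by its column name, and orders, shares and ratios between genes depend on it.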
